A study of Sus scrofa with 8 samples.

Results

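The genes described are 7 that make, break down and regulate glycogen in liver, the branched glucose store of the hepatocyte: *GYS2*, *PYGL*, *GBE1*, *UGP2*, *PHKA2*, *PPP1R3B* and *PPP1R3C*. They were taken by symbol from the 20430 genes of the expression table, and 7 of 7 were found. The RNA came from 24 male Large White x Landrace pigs with diet-induced steatohepatitis. The disease was brought on by 1 month of feed with added saturated fat, fructose, cholesterol and cholate and with too little choline and methionine. The 12 control pigs then stayed on that diet for 1 month more, and the 12 squalene pigs received it with 0.5% squalene, a triterpene and precursor of cholesterol. Equal amounts of RNA from 3 animals made a pool, so that each diet had 4 pools, and the pool was the replicate. Animals were killed after an overnight fast, and no pool came from pigs on an ordinary diet. The sources used here do not give the age of the animals.

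Glycogen synthesis starts from glucose 1-phosphate, which *UGP2* (UDP-glucose pyrophosphorylase) turns into UDP-glucose, the activated glucose donor. *GYS2* encodes the liver isoform of glycogen synthase, which lengthens the chains, and *GBE1* the branching enzyme. *PYGL* encodes liver glycogen phosphorylase, which removes glucose from chain ends and is switched on by phosphorylase kinase, whose liver regulatory alpha subunit is encoded by *PHKA2*. *PPP1R3B* and *PPP1R3C* encode subunits that bring protein phosphatase 1 to the glycogen particle, where it activates synthase and inactivates phosphorylase. These enzymes are controlled to a large extent by phosphorylation and by metabolites, which transcript levels do not record. In the Sscrofa11.1 assembly, *UGP2* lies at chr3:77975450-78032471 (−), *GYS2* at chr5:51862952-51915153 (+), *GBE1* at chr13:173634401-173909646 (+) and *PYGL* at chr1:180645849-180704124 (−). *PHKA2* lies at chrX:15279398-15365731 (−), *PPP1R3B* at chr15:56002383-56013477 (+) and *PPP1R3C* at chr14:103273401-103278757 (−).

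The estimated depth was 17.3 to 20.5 M fragments per control pool and 17.5 to 19.6 M per squalene pool, and since these are estimates, no counting interval is given per gene. Squalene pool 1 stood apart from the rest, with a mean correlation across genes of 0.977 with the other pools, against 0.981 to 0.984. Its summed FPKM of 6 interferon-induced genes was 3348, the highest of the squalene pools. The lowest of these was 579 in squalene pool 4, and the control pools ran from 427 to 1052. All 8 of 8 hepatocyte markers were measured, with a sum of 40685 to 67852 FPKM per control pool and 44384 to 67731 per squalene pool, and 3 of 5 skeletal muscle markers were measured with a sum of at most 0.12 FPKM. In whole liver, fewer cells of a type and less RNA per cell cannot be told apart.

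Transcript level was given as FPKM, mapped fragments scaled to gene length and library depth, so that levels of different genes can be ordered. *UGP2* was the most abundant of the 7, at 258 ± 66.0 FPKM (mean ± SD, n = 8 pools), and stood above 97.8% of the 14780 genes tested, those that reached 0.1 FPKM on average. *PYGL* followed at 98.5 ± 10.03 FPKM. *GYS2* reached 41.1 ± 10.1 FPKM and *GBE1* 34.5 ± 4.76 FPKM. The 2 phosphatase subunits came next, with *PPP1R3C* at 26.2 ± 10.1 FPKM and *PPP1R3B* at 11.05 ± 3.32 FPKM. *PHKA2* was the lowest, at 2.82 ± 0.209 FPKM, which was above 42.8% of the tested genes.

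Neighbours in this order were compared within pools by a two-sided exact permutation test that flips the sign of the 8 log2 differences, adjusted over the 6 neighbouring pairs. The level of *UGP2* exceeded that of *PYGL* 2.57-fold (geometric mean, 8 of 8 pools), *PYGL* exceeded *GYS2* 2.44-fold (8 of 8), *PPP1R3C* exceeded *PPP1R3B* 2.28-fold (8 of 8) and *PPP1R3B* exceeded *PHKA2* 3.68-fold (8 of 8). Each of these 4 had an exact p of 0.00781, the smallest that 8 pools allow, and an adjusted p of 0.0117. *GYS2* and *GBE1* were not separated beyond their spread, at 1.17-fold with *GYS2* higher in 5 of 8 pools (exact p = 0.0625, adjusted p = 0.075). *GBE1* and *PPP1R3C* were not separated either, at 1.40-fold with *GBE1* higher in 7 of 8 pools (exact p = 0.0938, adjusted p = 0.0938). The exception was squalene pool 1, in which *PPP1R3C* ranked above both *GBE1* and *GYS2*. Without squalene pool 1, 5 of the 6 neighbouring pairs were separated, against 4 without any other single pool.

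*UGP2*, which supplies UDP-glucose, was measured at 241, 226, 208 and 251 FPKM in control pools 1 to 4. In squalene pools 1 to 4 it was measured at 208, 271, 247 and 412 FPKM. The groups overlapped, and squalene pool 4 stood above every other pool, at 1.747 times the mean of the other 7. The fitted difference, squalene minus control, was 0.25 on the log2(FPKM + 0.1) scale (SE 0.19, limma, adjusted p = 0.9997), a 1.19-fold level with a 95% interval of 0.894 to 1.59. Without squalene pool 4 it was 0.06 (SE 0.12). Without squalene pool 1, which had the lowest value of the squalene pools, it was 0.39 (SE 0.17, limma, adjusted p = 0.999). The gene overlaps *VPS54* on the other strand by 2745 bases. The library protocol names no step that keeps strand, so reads from the overlap cannot be told apart, and *VPS54* averaged 9.85 FPKM.

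*GYS2*, the liver synthase, was measured at 34.7, 50.6, 33.4 and 37.5 FPKM in control pools 1 to 4. In squalene pools 1 to 4 it was measured at 28.1, 42.0, 42.9 and 59.4 FPKM. The 2 highest values, in squalene pool 4 and control pool 2, belonged to different diets, and squalene pool 1 held the lowest. The fitted difference was 0.11 on the log2 scale (SE 0.21), with a 95% interval of 0.778 to 1.502 on the fold scale. Without squalene pool 4 it was −0.06, and without squalene pool 1 it was 0.30 (SE 0.17).

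*GBE1*, which places the branch points, was measured at 35.5, 39.2, 28.2 and 41.4 FPKM in control pools 1 to 4 and at 28.8, 31.0, 35.3 and 36.4 FPKM in squalene pools 1 to 4. Control pools held both the highest and the lowest value, so that the squalene pools lay inside the control range. The fitted difference was −0.12 on the log2 scale (SE 0.13), a level of 0.918-fold with a 95% interval of 0.745 to 1.13.

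*PYGL*, the liver phosphorylase, was measured at 91.3, 104, 88.5 and 111 FPKM in control pools 1 to 4 and at 84.3, 96.2, 110.8 and 102 FPKM in squalene pools 1 to 4. The ranges of the diets nearly coincided, and the highest pool was only 1.32 times the lowest. The fitted difference was −0.01 on the log2 scale (SE 0.11), with a 95% interval of 0.835 to 1.19 on the fold scale. Its sign was not fixed, since it was 0.07 without squalene pool 1 and also above 0 without squalene pool 2, control pool 2 or control pool 4. The gene overlaps *ABHD12B* on the opposite strand by 16584 bases, and that gene averaged 0.277 FPKM.

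*PHKA2*, the regulatory subunit of phosphorylase kinase, was the steadiest member, at 2.82, 2.91, 2.60 and 3.10 FPKM in control pools 1 to 4 and 2.96, 2.69, 2.98 and 2.49 FPKM in squalene pools 1 to 4. Its coefficient of variation over the 8 pools was 7.42%, and the SD of its log2 values was larger than that of 5.08% of the tested genes. The groups overlapped, with the lowest value in squalene pool 4. The fitted difference was −0.04 on the log2 scale (SE 0.12), with a 95% interval of 0.815 to 1.16 on the fold scale, and without squalene pool 4 it was 0.01.

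*PPP1R3B*, the phosphatase subunit that is enriched in liver, was measured at 10.98, 8.17, 12.9 and 12.05 FPKM in control pools 1 to 4. In squalene pools 1 to 4 it was measured at 13.3, 16.5, 6.76 and 7.72 FPKM. The squalene pools fell on both sides of the control range, 2 above it and 2 below it. The fitted difference was −0.07 on the log2 scale (SE 0.27), with a 95% interval of 0.6246 to 1.45 on the fold scale. It turned to 0.13 without squalene pool 3, to 0.07 without squalene pool 4 and to 0.01 without control pool 3.

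*PPP1R3C*, the other phosphatase subunit, was measured at 23.4, 21.6, 25.8 and 28.8 FPKM in control pools 1 to 4. In squalene pools 1 to 4 it was measured at 45.95, 27.5, 27.3 and 9.36 FPKM. The 4 control pools and squalene pools 2 and 3 lay close together, while squalene pool 1 was the highest and squalene pool 4 the lowest of all, 4.91-fold apart. The SD over the squalene pools was 14.9 FPKM, against 3.12 FPKM over the control pools. The fitted difference was −0.05 on the log2 scale (SE 0.39), with the widest 95% interval of the 7, 0.532 to 1.748 on the fold scale. Without squalene pool 4 the difference was 0.40 (SE 0.19, limma, adjusted p = 0.995), without squalene pool 1 it was −0.37 (SE 0.33), and without control pool 4 it was 0.02.

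**Figure D1:**
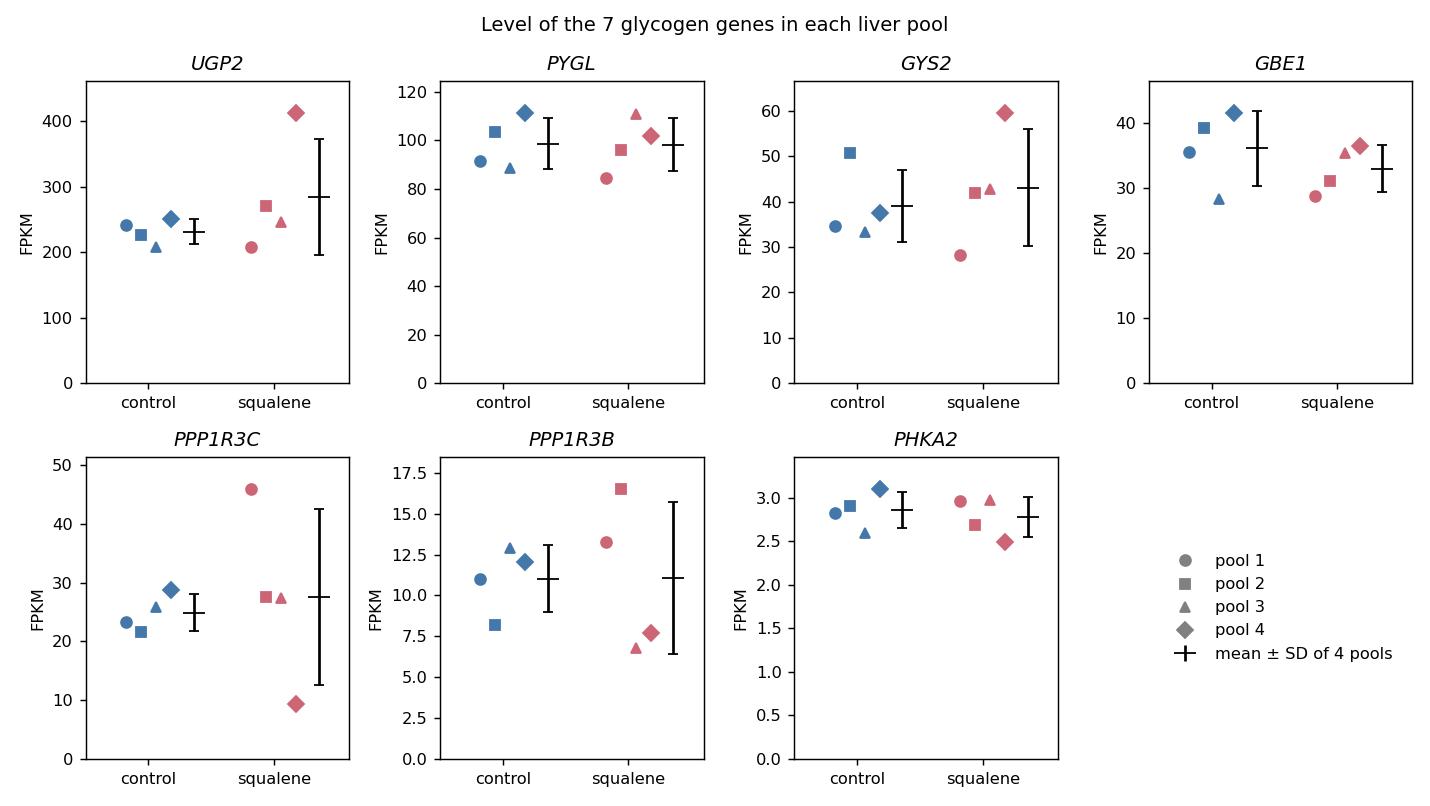
FPKM (vertical axes, starting at 0) of each of the 7 genes in the 4 control pools (blue) and the 4 squalene pools (red), with marker shapes for the pool number and a black bar for the mean ± SD of 4 pools. The diets overlap for every gene, and squalene pool 4 (diamond) holds the highest *UGP2* (412 FPKM) and *GYS2* (59.4 FPKM) and the lowest *PPP1R3C* (9.36 FPKM) of all pools.

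None of the 7 genes passed the test between the diets (limma, adjusted p = 0.9997 for each), nor did any of the 14780 genes tested (0%). At an unadjusted p under 0.05, 0 of 7 members and 645 of the 14780 genes (4.36%) were called. Control and squalene pools were fully separated for 0 of 7 members and for 395 of all tested genes (2.67%). Of the 7, 2 were fitted above 0 and 5 below, where 47.1% of all tested genes were fitted above 0, with a median log2 difference of −0.04 against −0.01 over all tested genes. As squalene over control, the 95% intervals ran from 0.835 to 1.19-fold for *PYGL*, 0.815 to 1.16-fold for *PHKA2* and 0.745 to 1.13-fold for *GBE1*. They were wider for *PPP1R3B* (0.6246 to 1.45-fold) and *PPP1R3C* (0.532 to 1.748-fold). The counts that the authors added over the 4 pools of each diet were higher in squalene for 3 members, at 40649 in control and 49538 in squalene for *UGP2*, 7134 and 7808 for *GYS2*, and 6242 and 6800 for *PPP1R3C*. They were lower in squalene for 4, at 22298 and 21929 for *PYGL*, 8690 and 7859 for *GBE1*, 1980 and 1870 for *PHKA2*, and 4128 and 4116 for *PPP1R3B*. These sums hold no spread between pools.

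**Figure D2:**
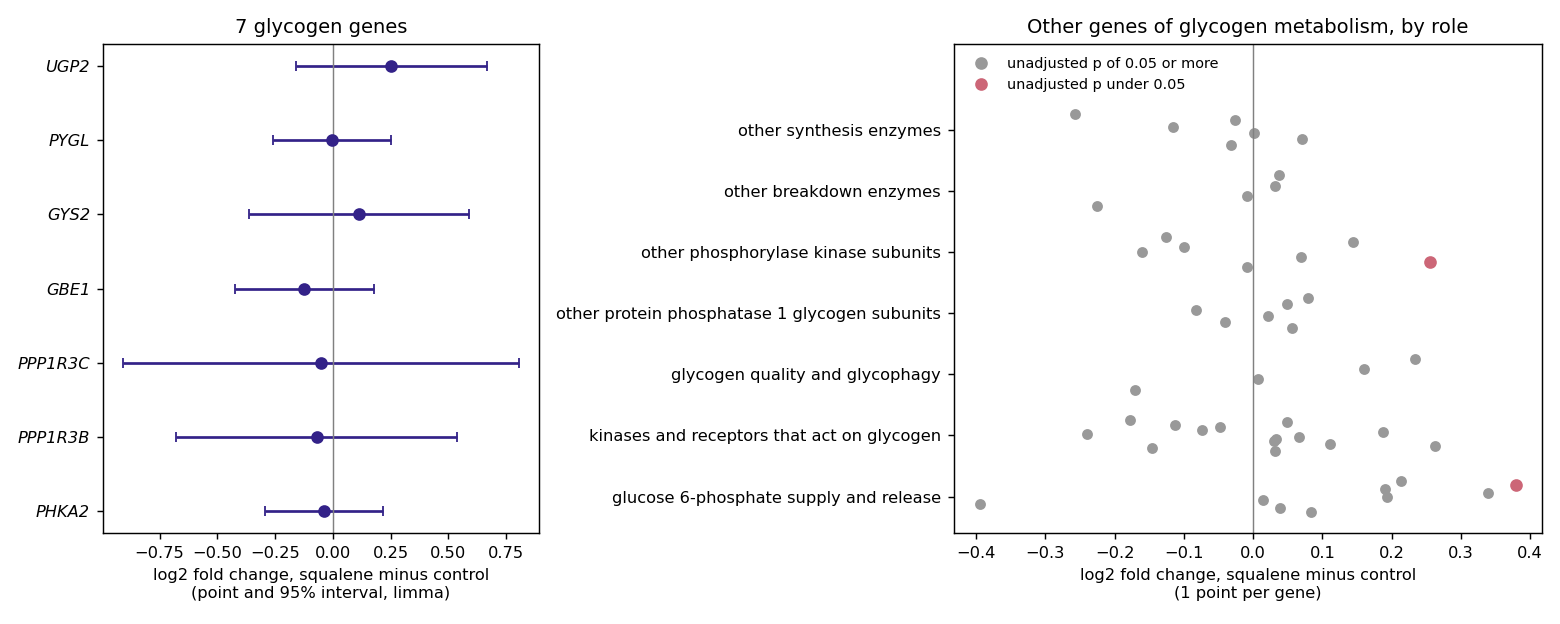
Left, the fitted log2 fold change (squalene minus control, log2(FPKM + 0.1) scale) of the 7 genes with 95% intervals from limma. Right, the same difference for each of 50 other genes of glycogen metabolism, by role, with the genes at an unadjusted p under 0.05 in red. All 7 intervals include 0, from the narrow one of *PYGL* (0.835 to 1.19-fold) to the wide one of *PPP1R3C* (0.532 to 1.748-fold), and the 2 red points are *CALM2* (0.26) and *SLC2A2* (0.38).

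The 4 members with the largest spread between pools were *PPP1R3C*, *PPP1R3B*, *GYS2* and *UGP2*, whose log2 values had SDs of 0.64, 0.44, 0.34 and 0.32, larger than those of 93.8%, 84.5%, 74.7% and 70.7% of the tested genes. For 3 of these 4, *UGP2*, *PPP1R3B* and *PPP1R3C*, the 250 bases before the annotated start in Sscrofa11.1 (RefSeq annotation) are shown, 5′ to 3′ on the strand of the gene. Capitals mark matches, on either strand, to 6 motifs: CACGTG (E-box), TGACGTCA (cyclic AMP response element), GTAAACA (FOXO motif), GGGCGG (GC box), CCAAT and TATAAA. The windows are chr3:78032472-78032721 (−) for *UGP2*, chr15:56002133-56002382 (+) for *PPP1R3B* and chr14:103278758-103279007 (−) for *PPP1R3C*.
UGP2: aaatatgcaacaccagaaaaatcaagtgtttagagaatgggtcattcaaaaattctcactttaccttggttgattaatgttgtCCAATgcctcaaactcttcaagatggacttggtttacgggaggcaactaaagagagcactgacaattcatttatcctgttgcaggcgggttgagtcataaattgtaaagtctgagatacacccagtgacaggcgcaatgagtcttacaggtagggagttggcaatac
PPP1R3B: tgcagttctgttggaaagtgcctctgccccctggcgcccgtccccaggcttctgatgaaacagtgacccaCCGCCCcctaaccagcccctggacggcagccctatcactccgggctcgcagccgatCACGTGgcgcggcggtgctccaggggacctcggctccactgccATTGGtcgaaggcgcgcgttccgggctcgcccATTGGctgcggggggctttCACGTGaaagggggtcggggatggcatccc
PPP1R3C: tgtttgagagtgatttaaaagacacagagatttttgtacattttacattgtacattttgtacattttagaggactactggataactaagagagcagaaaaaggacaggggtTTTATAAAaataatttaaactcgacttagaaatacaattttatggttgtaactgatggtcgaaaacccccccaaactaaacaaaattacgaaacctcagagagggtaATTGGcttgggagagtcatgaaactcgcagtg

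The windows differed in base composition. That of *PPP1R3B* held 68.0% G and C, with 21 CG pairs, while those of *UGP2* and *PPP1R3C* held 40.8% and 34.8%. The median over 20664 promoters of the same length was 57.2%. *PPP1R3B* alone of the 7 members held the E-box letters, at −124 and −30 from the annotated start, and 6.16% of all promoters held them. TGACGTCA and GTAAACA were in 0 of 7 member windows and in 1.63% and 2.31% of all promoters. GGGCGG was in 4 of 7 windows (44.4% of all promoters), CCAAT in 4 of 7 (32.0%) and TATAAA in 2 of 7 (10.4%). Different motifs did not overlap in these windows, except that TATAAA on both strands of *PPP1R3C* shared bases. A match describes letters in the window, and *UGP2* and *PPP1R3B* have 5 and 4 annotated transcripts, of which only the outermost start was used.

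The members did not vary together as 1 block across the pools. Of the 21 pairs, 10 correlated with r above 0 and 11 below on the log2 scale, and 4 had an exact permutation p under 0.05 for Pearson's r, but none passed after adjustment over the 21 (smallest adjusted p = 0.146). The share of all gene pairs that reach such an unadjusted p was not computed. The median absolute r was 0.54, against 0.31 over all pairs of the 10967 genes that averaged 1 FPKM or more.

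*GYS2* and *PPP1R3C* varied in opposite directions, with r = −0.85 (two-sided exact permutation p = 0.00694, adjusted p = 0.146) and rho = −0.64 (exact p = 0.0962, adjusted p = 0.345) over the 8 pools. With the mean of each diet taken off, r was −0.85 (exact p = 0.0434). Without squalene pools 1 and 4, the 2 pools farthest from the median of *GYS2*, r was −0.33 (exact p = 0.515). It was −0.72 (exact p = 0.0708) without squalene pool 4 alone and −0.77 (exact p = 0.0363) without squalene pool 1 alone. Leaving out both ends narrows the range of *GYS2*, so these values do not tell whether the relation rested on those pools.

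*PYGL* and *GBE1*, which take chains apart and branch them, varied in the same direction, with r = 0.82 (exact p = 0.0170, adjusted p = 0.151) and rho = 0.79 (exact p = 0.0279, adjusted p = 0.345). Within the diets r was 0.86 (exact p = 0.00868, adjusted p = 0.182). Without control pool 4 and squalene pool 1, the ends of the *PYGL* range, r was 0.65 (exact p = 0.168). It was 0.82 without squalene pool 4.

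*UGP2* and *GYS2*, successive steps of synthesis, had r = 0.77 (exact p = 0.0216, adjusted p = 0.151) and rho = 0.67 (exact p = 0.0831, adjusted p = 0.345), and r = 0.44 (exact p = 0.365) without control pool 3 and squalene pool 4. *UGP2* and *PPP1R3C* had r = −0.85 (exact p = 0.0340, adjusted p = 0.179), yet rho was only −0.17 (exact p = 0.703, adjusted p = 0.821) and r without control pool 3 and squalene pool 4 was −0.49 (exact p = 0.344). Within the diets, r was 0.78 (exact p = 0.0903) and −0.92 (exact p = 0.0556) for these pairs. Without squalene pool 4 alone, r was 0.51 (exact p = 0.235) and −0.33 (exact p = 0.523). Without any other single pool it ran from 0.74 to 0.94 for *UGP2* and *GYS2*, the highest without control pool 2 (exact p = 0.00238), and from −0.90 to −0.85 for *UGP2* and *PPP1R3C*.

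**Figure D3:**
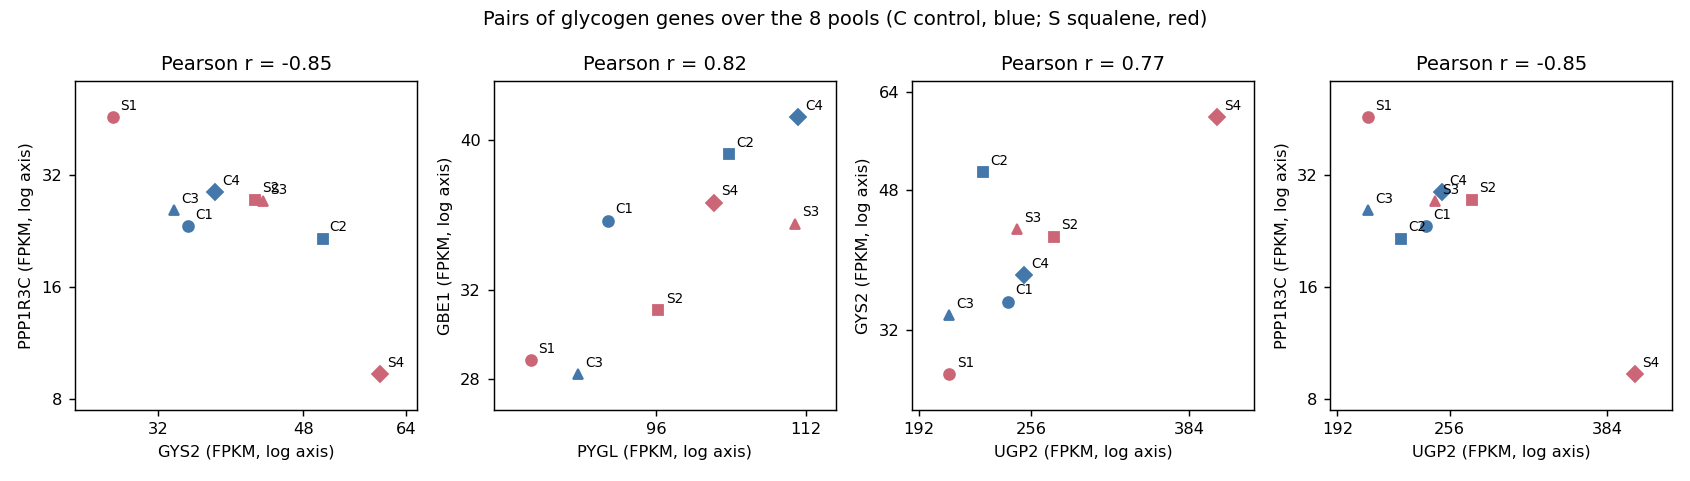
FPKM of 2 glycogen genes in each pool (both axes on a log scale, points labelled C1 to C4 for control pools and S1 to S4 for squalene pools), for the 4 pairs with an exact p under 0.05. In *GYS2* against *PPP1R3C* (r = −0.85) and *UGP2* against *PPP1R3C* (r = −0.85), S4 lies at the lower right. S1 lies at the upper left of both. *PYGL* against *GBE1* (r = 0.82) spreads over pools of both diets.

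Ratios between members were described without a test. The ratio of *GYS2* to *PYGL* FPKM, synthase to phosphorylase, was 0.380, 0.489, 0.378 and 0.338 in control pools 1 to 4. In squalene pools 1 to 4 it was 0.334, 0.436, 0.387 and 0.583. The ratios overlapped between the diets, and squalene pool 4 held the highest. The ratio of *GBE1* to *GYS2*, branching to chain growth, ran from 0.774 to 1.10 in the control pools and from 0.613 in squalene pool 4 to 1.02 in squalene pool 1. The ratio of *PPP1R3B* to *PPP1R3C* ran from 0.378 to 0.501 in the control pools, a narrow range, and was 0.289, 0.600, 0.247 and 0.825 in squalene pools 1 to 4, with 2 pools below that range and 2 above it.

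Squalene pool 4 had more members at an end of their range than any other pool, 4 of 7. It held the highest *UGP2* and *GYS2* and the lowest *PHKA2* and *PPP1R3C*, while its *PYGL* and *GBE1* lay within the range of the other pools. In this pool the log2 difference from the mean of the other 7 pools was −1.56 for *PPP1R3C*, 0.81 for *UGP2* and 0.65 for *GYS2*. The 7 genes summed to 629 FPKM in this pool, against 399 to 487 in the other pools. Most of this sum was *UGP2*, at 412 FPKM in this pool against 208 to 271 in the others. Squalene pool 1 lay the other way, with the highest *PPP1R3C* and the lowest *GYS2* and *PYGL*.

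Among genes that mark the fasted or insulin-deprived liver, squalene pool 4 also held the highest *PDK4*, a kinase that restrains pyruvate oxidation (174 FPKM against 56.6 to 98.4 in the others). It held the highest *IGFBP1*, an insulin-repressed binding protein (708 FPKM against 204 to 639). Squalene pool 1 held the lowest *IGFBP1*, at 204 FPKM. These genes were picked after their values were seen. Of 10 lists of cell type markers, summed per pool, squalene pool 4 held the highest sum of 1 and the lowest of 3. Summed bile duct markers (4 of 4 measured) were 16.4 FPKM in this pool, against 5.35 to 13.5 in the other 7. Summed endothelial markers (6 of 6) were 63.9 FPKM against 71.7 to 105, T cell markers (4 of 4) 11.96 against 14.8 to 25.5, and B cell markers (4 of 4) 14.2 against 15.5 to 23.9. Stellate cell and fibroblast markers (6 of 6), at 190 FPKM, lay within the 98.5 to 228 of the other pools. Such ends were not particular to squalene pool 4. Squalene pool 2 held the highest stellate cell (228 FPKM) and skeletal muscle (0.12 FPKM) sums of the 8 pools. It also held the lowest neutrophil (5.58 FPKM) and red cell (101 FPKM) sums. The part of these values in the levels of the members was not tested.

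**Figure D4:**
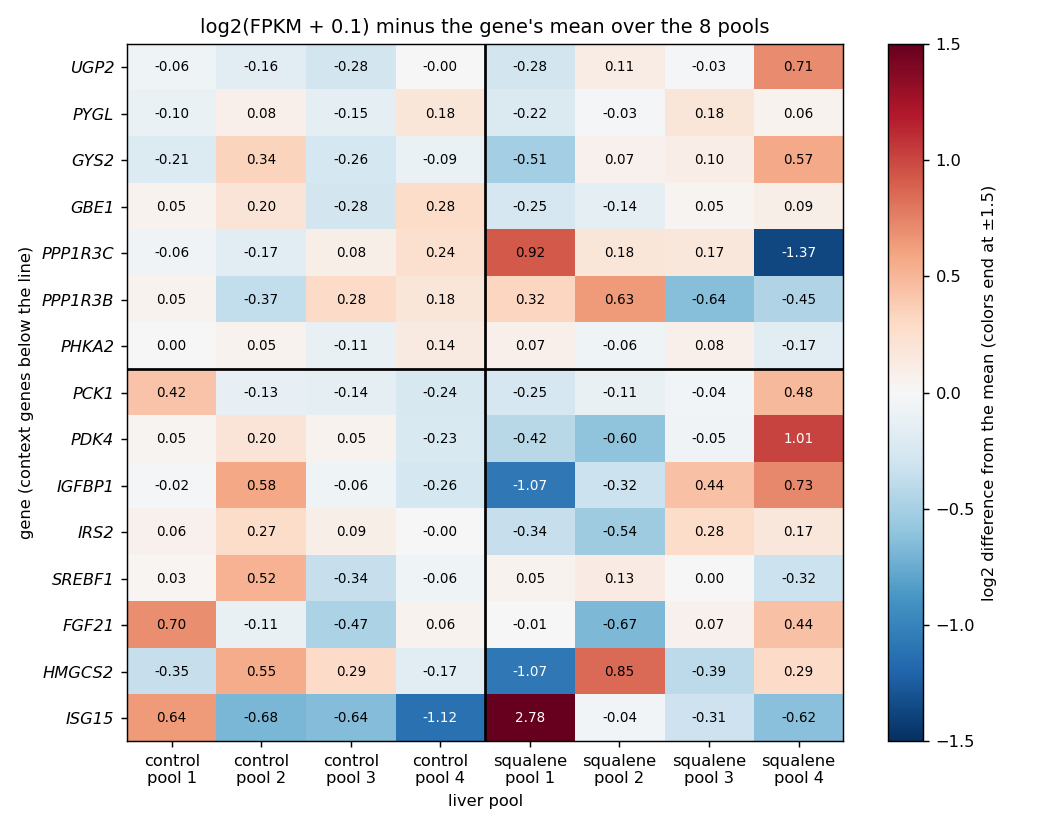
Difference of log2(FPKM + 0.1) from the gene's mean over the 8 pools (color, with the value in each cell), for the 7 glycogen genes above the line and for 7 fasting and insulin genes and *ISG15* (interferon-induced) below it. *PPP1R3C* stood at 0.92 in squalene pool 1 and −1.37 in squalene pool 4, *UGP2* and *GYS2* at 0.71 and 0.57 in squalene pool 4, and *PHKA2* stayed between −0.17 and 0.14.

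The 7 members were set against 16 genes, the fasting and insulin genes and those of glucose 6-phosphate supply and release, over the 8 pools. Of the 112 relations, which reuse the same genes, 15 had an exact p under 0.05 for Pearson's r, 9 of which were of *PPP1R3B* or *PPP1R3C*. None passed after adjustment over the 112 (smallest adjusted p = 0.171). How often gene pairs in general reach such a p was not computed. *PPP1R3B* and *IRS2*, an insulin receptor substrate, had r = −0.86 (exact p = 0.00298, adjusted p = 0.171) and rho = −0.90 (exact p = 0.00456, adjusted p = 0.170). This relation kept its size without squalene pools 3 and 4, the 2 farthest in *PPP1R3B* (r = −0.87, exact p = 0.0153), and without squalene pool 1 (r = −0.85, exact p = 0.00337). *PPP1R3C* and *PDK4* had r = −0.90 (exact p = 0.00915, adjusted p = 0.171) and rho = −0.90 (exact p = 0.00456, adjusted p = 0.170), and r = −0.71 (exact p = 0.0986) without squalene pools 1 and 4. With *HK3*, of the glucose 6-phosphate genes, *PPP1R3C* had r = 0.87 (exact p = 0.00543, adjusted p = 0.171). Their rho was 0.79 (exact p = 0.0279, adjusted p = 0.348), and r was 0.53 (exact p = 0.2875) without squalene pools 1 and 4. *GYS2* and *IGFBP1* had r = 0.87 (exact p = 0.00635, adjusted p = 0.171) and rho = 0.79 (exact p = 0.0279, adjusted p = 0.348), and r = 0.65 (exact p = 0.185) without the same 2 pools. *GBE1* and *GCKR*, a regulator of glucose phosphorylation, had r = 0.84 (exact p = 0.00605, adjusted p = 0.171) and rho = 0.79 (exact p = 0.0279, adjusted p = 0.348), and r = 0.67 (exact p = 0.135) without control pool 3 and squalene pool 1.

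Around the members, 52 other genes of glycogen metabolism were measured and 50 reached the mean of 0.1 FPKM. None of the 50 passed the test, and 2 had an unadjusted p under 0.05, where 4.36% of all tested genes did. Of the 50, 30 were fitted above 0 and 20 below, where 47.1% of all tested genes were fitted above 0. Among 6 other synthesis enzymes, 0 passed in either direction. *PGM1*, the phosphoglucomutase that feeds *UGP2*, was the most abundant, at 73.6 ± 3.54 FPKM in control and 68.7 ± 11.9 FPKM in squalene pools (SD, n = 4 each), with the lowest value, 52.05 FPKM, in squalene pool 1. *PGM2L1* had the smallest p of the list, with a log2 difference of −0.26 (SE 0.23).

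Among 4 other breakdown enzymes, 0 passed. *GAA*, the lysosomal glucosidase, averaged 29.7 FPKM over the 8 pools. Of the other isoforms, muscle phosphorylase *PYGM* averaged 0.336 FPKM, brain phosphorylase *PYGB* 0.511 FPKM and muscle synthase *GYS1* 2.63 FPKM, all far below *PYGL* and *GYS2* per length.

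Among 7 other phosphorylase kinase subunits, 0 passed, and *CALM2*, which encodes calmodulin, the calcium-binding subunit, was the most abundant. It was measured at 172, 152, 159 and 174 FPKM in control pools 1 to 4 and at 218, 193, 190 and 185 FPKM in squalene pools 1 to 4. All squalene pools lay above all control pools. This was the only gene of the 50 whose pools did not overlap, where 2.67% of all tested genes did not. The difference of 0.26 on the log2 scale (SE 0.09) had an adjusted p of 0.9997 in limma. Calmodulin serves many enzymes, and *CALM3* differed by 0.07.

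Among 8 other subunits of protein phosphatase 1 on glycogen, 6 were tested and 0 passed. The catalytic subunit *PPP1CA* was the most abundant, at 45.7 FPKM over the 8 pools, and the targeting subunit *PPP1R3D* had the smallest p, with a log2 difference of −0.08 (SE 0.12). The muscle targeting subunit *PPP1R3A* was listed at 0 in 7 of 8 pools. Of the 4 genes of glycogen quality and glycophagy, 0 passed, with *GABARAPL1* the most abundant at 69.4 FPKM and *STBD1*, which tethers glycogen to autophagosomes, at a log2 difference of 0.23 (SE 0.15), the smallest p of the list. Of the 14 kinases and receptors, 0 passed, with *PRKAR1A*, a regulatory subunit of protein kinase A, the most abundant at 57.8 FPKM and the insulin receptor *INSR* at a log2 difference of −0.24 (SE 0.13), the smallest p of the list.

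Of 9 genes that supply or release glucose 6-phosphate, 0 passed. Of these, 8 were fitted above 0, against 47.1% of all tested genes, and this count was not tested. *SLC2A2*, the glucose transporter of the hepatocyte, was measured at 82.5, 94.2, 68.8 and 89.4 FPKM in control pools 1 to 4 and at 108.6, 101, 89.55 and 139 FPKM in squalene pools 1 to 4. Its ranges overlapped, and the difference of 0.38 on the log2 scale (SE 0.15) had an adjusted p of 0.9997 in limma. *G6PC*, the glucose 6-phosphatase, was the most abundant of these genes, at 187 ± 92.0 FPKM in control and 189 ± 54.4 FPKM in squalene pools (SD, n = 4 each), and ranged from 119 to 316 FPKM over the 8 pools.

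For each member, the genes most like it over the 8 pools were named, up to 2 for each, by Pearson's r of log2 values, among 10280 named genes that averaged 1 FPKM or more, and no test was made. They were *LONP2* and *SLC27A2* for *GYS2* (r = 0.95 for both), *NDUFV1* and *NRAP* for *PYGL* (0.96 and 0.94), *CUL3* for *GBE1* (0.95), and *NLN* and *GAREM1* for *UGP2* (0.98 and 0.97). For *PHKA2* they were *CEP41* and *TKFC* (0.96 and 0.95), for *PPP1R3B* *MTFR1L* and *TPGS1* (0.98 and 0.97), and for *PPP1R3C* *RAB15* and *ARPC5* (0.95 for both). *NLN*, a peptidase, shared the high value of *UGP2* in squalene pool 4, at 32.05 FPKM against 16.2 to 22.6 in the other pools.

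The same libraries also gave called bases at SNP sites, of which 340 lay in the 7 genes. *GYS2* held 233 of them, 229 in introns, and *GBE1* 42, *PYGL* 21, *PPP1R3B* 16, *PHKA2* 12, *PPP1R3C* 11 and *UGP2* 5. Per pool, 70, 137, 144 and 77 member sites differed from the reference in control pools 1 to 4 and 57, 60, 94 and 134 in squalene pools 1 to 4. Pools of both diets lay high and low, and the number of member sites with a called base also varied, from 176 to 268 per pool. In *GYS2* the non-reference sites numbered 95, 101 and 102 in control pools 2 and 3 and squalene pool 4, 63 in squalene pool 3, and 24 to 35 in the others. Each site carries 1 base per pool of 3 animals, so that a mixed pool cannot be told from a uniform one.

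Of the 14 coding sites, 10 left the encoded amino acid unchanged and 4 changed it in the annotated transcript used. The coding sequences around 3 of these are shown, with the variable base in capitals. The fourth, G119A of *PPP1R3B*, is not shown because it is coding in only 1 of 4 annotated transcripts. Positions count from the first base of the coding sequence. C680A of *PPP1R3B* is coding in 4 of 4 annotated transcripts, but its position is counted on the 1 in which G119A is coding.
GYS2 G11A, chr5:51863219 (+): atgcttcgagGccggtccctatcggt
PHKA2 A3683C, chrX:15284467 (−): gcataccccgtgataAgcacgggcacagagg
PPP1R3B C680A, chr15:56009373 (+): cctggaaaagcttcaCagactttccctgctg

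In *GYS2*, G11A turns codon 4 from GGC into GAC. It was called in 6 of 8 pools, and control pool 2 and squalene pool 3 carried the reference base. In *PHKA2*, which lies on the X chromosome, A3683C turns AAG into ACG and was called only in control pools 1 and 4. The synonymous site T2875C had the same pattern, and A3683C is coding in 6 of 12 annotated transcripts. In *PPP1R3B*, C680A turns ACA into AAA and was called in control pools 1, 3 and 4 and squalene pool 3, as were 2 sites in non-coding exon sequence of that gene. G119A was called in 7 of 8 pools. None of the 61 splicing events listed between the diets lay in a member.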

How the data were processed

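Liver RNA of 8 pools was sequenced after poly(A) selection. The authors mapped reads to Sscrofa11.1 with HISAT2, of a version the sources used here do not give, and deposited FPKM per gene and pool to 2 decimals. The table of the diets that the authors deposited holds expected counts (estimated counts) summed over the 4 pools of each diet. Its log2 ratios, p-values and q-values were not used. No count model was used, because whole reads could not be rebuilt from the FPKM values. Depth was instead estimated from the summed counts, the gene lengths and the FPKM of up to 8872 genes.

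The diets were compared with limma 3.58.1 in R 4.3.3 (lmFit, eBayes with trend) on log2(FPKM + 0.1) in the 14780 genes that averaged 0.1 FPKM or more, with Benjamini-Hochberg adjustment over all of them and a threshold of 0.05, two-sided. Fold changes are on that scale, which understates changes of low genes. The script was tested on simulated data. Correlations and neighbouring levels were tested by exact permutation over the pools (Python 3.11.15, numpy 2.4.6, scipy 1.17.1). The p-values measure the spread between pools of 3, not between single pigs.

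Promoters and coding sites were read from the RefSeq annotation (release 106) of Sscrofa11.1, which held the gene ID of 7 of 7 members and the reference base of each member SNP site. For SNP sites, the authors deposited 1 letter for each pool, and the sources used here do not name a caller. The members and gene lists were chosen with earlier results of these data known. Named genes are the members, the most abundant gene and the gene with the smallest p of each role list, genes not overlapping, and the 2 genes most like each member, and some items that this rule names are not reported here. The other isoforms, *PPP1R3A*, *CALM3* and the genes of fasting, insulin and glucose supply beyond this rule were named after their values were seen.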

Additional observations from a re-analysis of the deposited data

How the results depend on the processing

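Of 119 member fits under 17 alternatives, 0 had an adjusted p under 0.05 and 1 an unadjusted p under 0.05 (*UGP2* without squalene pool 1), with a smallest adjusted p of 0.958, and 13 changed direction. Over all genes, 0 were called, but 1 was called by eBayes without trend (adjusted p = 0.0448), and leaving out 1 pool at a time gave 0 to 1 calls, with the 1 call in the fit without control pool 2 (adjusted p = 0.0346). The log2 difference of *PYGL* (−0.01) turned to 0.0022 after rescaling to TPM and to 0.0046 after scaling by the median ratio. Leaving out 1 pool at a time gave −0.065 to 0.066 for *PYGL*, −0.059 to 0.30 for *GYS2*, −0.082 to 0.011 for *PHKA2*, −0.29 to 0.13 for *PPP1R3B* and −0.37 to 0.40 for *PPP1R3C*. *UGP2* (0.06 to 0.39) and *GBE1* (−0.24 to −0.05) kept their direction in each of these fits. The cause of the changes was not tested.

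Pool numbers are shared between the diets only as numbers. Deviations of same-numbered pools correlated at 0.09, 0.02, 0.03 and −0.07, and 2 of 4 pools correlated best with their own number. With the replicate block, 0 genes and 0 members were called, and the smallest adjusted p of a member was 0.985. With 4 pools per diet, the intervals of *PPP1R3C* and *PPP1R3B* run from 0.532 to 1.748-fold and from 0.6246 to 1.45-fold.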
